A study of Mus musculus with 9 samples.

Results

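The transcriptome of untreated conventional type 2 dendritic cells (cDC2s) from wild-type (WT) mouse bone marrow cultures was described in the 3 libraries titled as WT, of 9 libraries in the series. All 40879 gene symbols listed for these libraries were taken in, each described by its level and its rank. The other 6 libraries, from cultures given interferon alpha and from cultures of A20 iKO mice, entered no value. Marrow cells were grown with 100 ng/ml recombinant human Flt3L for 9 days, and cDC2s were then sorted by flow cytometry. The genotype entry reads WT, and the sources used here give no strain, age or sorting gate. The treatment protocol entry names interferon alpha on day 5 for every library, the WT libraries included, whereas their titles and other entries name no treatment, so "untreated" rests on the titles.

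Conventional dendritic cells take up antigen, cut it in the endosome and lysosome, and show the peptides to T cells on MHC molecules. The cytokine Flt3L, through its receptor Flt3, drives bone marrow progenitors towards dendritic cells in culture. The cDC2 subset carries Sirpa, depends on the transcription factor Irf4 and presents antigen mainly to CD4 T cells on MHC class II, while the cDC1 subset carries Xcr1, depends on Irf8 and Batf3 and cross-presents antigen to CD8 T cells on MHC class I.

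Each read was a tag from the 3' end of a transcript, so long and short transcripts count alike. Genes were ranked against each other on that basis, within the limit on missed transcripts given below. Levels are in CPM, each count divided by the library's total after TMM scaling and multiplied by 1000000, and are given as mean ± SD over n = 3 libraries. Total counts were 10552756, 6900598 and 9379681 in WT replicates 1, 2 and 3. A gene is called detected at a mean of at least 1 CPM. Detected genes numbered 12598, of which 8316 reached 10 CPM, 1898 reached 100 CPM and 90 reached 1000 CPM, while 23309 symbols had no count in any of the 3 libraries. Detected genes were 30.8% of all listed symbols and genes of at least 100 CPM were 4.64%, the shares against which the counts for each gene list below can be set. Both shares take in the symbols with no count, so a list above them is not thereby particular to cDC2s. Lists of other cells exceeded 30.8% too, with 66.7% of endothelial and 61.9% of neutrophil markers detected. The median level of a detected gene was 21.1 CPM. The 465 most abundant genes held 50% of all counts. The median coefficient of variation (CV, the SD as a percent of the mean) was 30.6% over detected genes, 21.7% over genes of at least 10 CPM and 13.3% over genes of at least 100 CPM. The libraries' origin limits what these errors mean: the design text speaks of 3 mice for the group, but every library held both Xist and the Y-linked Ddx3y, genes chosen after their values were seen, so whether 1 library is 1 mouse is not known.

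Some genes that every cell uses were listed at or near 0. The mitochondrial genes COX2, COX3, ND3 and ND4L had no count and ATP6 had 1 count in all, although ND4 stood at 5367 ± 658 CPM and COX1 at 907 ± 9.7 CPM. Aldoa, a glycolytic enzyme gene, had 5 counts in all, and Actg1, the second cytoplasmic actin gene, stood at 14.2 ± 2.13 CPM. A gene is therefore only "listed at 0" below, and a low value may understate a transcript whose 3' end the counting missed; the cause was not tested. Ranks and ratios between genes carry this limit too. A level of 0.112 CPM corresponds to 3 counts over the 3 libraries.

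WT replicates 1 and 2 stood apart, and the genes concerned are given before the other results. Among genes with a mean of at least 10 CPM, 605 of 8316 (7.28%) were at least 2 times higher in 1 library than in the next: 412 (4.95%) in WT replicate 2, 117 (1.41%) in WT replicate 1 and 76 (0.914%) in WT replicate 3. Such a gap compares single libraries and has no replicate check. The scatter of the highest library over the next, plotted against mean level, shows which groups hold these genes.

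WT replicate 2 held more stromal RNA. The collagen gene Col1a1, the only stromal gene among the 30 most abundant named genes, read 464, 2947 and 1026 CPM in replicates 1, 2 and 3. Col1a2, the partner chain of type I collagen, read 131, 794 and 218 CPM, and the fibronectin gene Fn1 read 104, 758 and 119 CPM. In each case replicate 2 was highest. Of 60 stromal and fibroblast markers, 28 had a mean of at least 10 CPM. Of these, 26 were highest in WT replicate 2, beside 34.5% of all genes of that level. In 21 of them replicate 2 was at least 2 times the next library, beside 4.95% of all such genes. The mean includes replicate 2, so some members passed the filter through it and both counts are partly set by the filter. Without replicate 2 the mean was below 10 CPM for Mmp14 (5.45), Serpinh1 (9.09), Fbn1 (8.18), Acta2 (8.02) and Col12a1 (4.84), among others. The list's summed level was 1642, 9062 and 3089 CPM, and its share of all counts was 0.464% ± 0.4, or 0.238% without replicate 2. Without replicate 2 the mean was 745 CPM in place of 1479 CPM for Col1a1, 174 in place of 381 CPM for Col1a2 and 112 in place of 327 CPM for Fn1. Not every member followed replicate 2: of the 28, 2 were highest in replicate 1 (Lpl and Runx2). Other markers on the list were low, with Dcn at 6.01 CPM, Bgn at 3.56 CPM, Lum at 0.975 CPM and Postn at 0.0807 CPM. Of these, Bgn was highest in replicate 3. The defining osteoblast genes Bglap and Ibsp were listed at 0.

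Some keratin and other epithelial genes, found on looking through the genes high in WT replicate 2, were highest there too. The keratin gene Krt5 read 0.494, 60.9 and 14.6 CPM, Krt18 read 11.5, 82 and 30.6 CPM, and the claudin gene Cldn4 read 1.38, 49.6 and 9.1 CPM. Epcam, which was placed on the cDC2 list since some dendritic cells carry it, read 0.198 and 16.9 CPM in replicates 1 and 2 and had no count in replicate 3. These genes were chosen after their values were seen, from those high in replicate 2, so their being highest there was set by the choice. Another keratin gene, Krt80, also chosen after its values were seen, was highest in WT replicate 3, at 2.71 times the next library. The 10 genes with the largest gap between the highest and the next library were all highest in WT replicate 2, and included Gm46546, Stc1, Gpr176, 1500009L16Rik, Hes1, Gm32849, Ephb4, Itgb4 and Hbegf. Stc1, which encodes the secreted hormone stanniocalcin, read 0.0988, 48.5 and 0.414 CPM. Hes1, a Notch target gene, read 0.593, 50.8 and 2.58 CPM, so its mean of 18 CPM came from 1 library and was 1.59 CPM without it. Whether stromal and epithelial RNA accounts for the other genes high in this library was not tested.

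WT replicate 1 held more RNA of some early response genes. Nr4a2, an orphan nuclear receptor gene, read 260, 64.2 and 34.3 CPM, and Atf3, a stress-induced transcription factor gene, read 817, 271 and 334 CPM. Fosb, an AP-1 subunit gene, read 158, 50.2 and 67.5 CPM. Without replicate 1 the means fell from 119 to 49.3 CPM for Nr4a2, from 474 to 303 CPM for Atf3 and from 92 to 58.8 CPM for Fosb. Of 28 immediate-early and stress genes with at least 10 CPM, 17 were highest in WT replicate 1, beside 35.4% of all genes, and 3 (Atf3, Fosb and Nr4a1) were at least 2 times the next library there, beside 1.41% of all genes. The summed level of the list differed less, at 14505, 12768 and 12248 CPM. Rgs1, a regulator of G-protein signalling chosen after its values were seen, read 533, 212 and 149 CPM. The noncoding gene Gm26917, also chosen after its values were seen because it had the most counts of all, took 11.5%, 5.21% and 5.57% of the counts in replicates 1, 2 and 3.

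**Figure D1:**
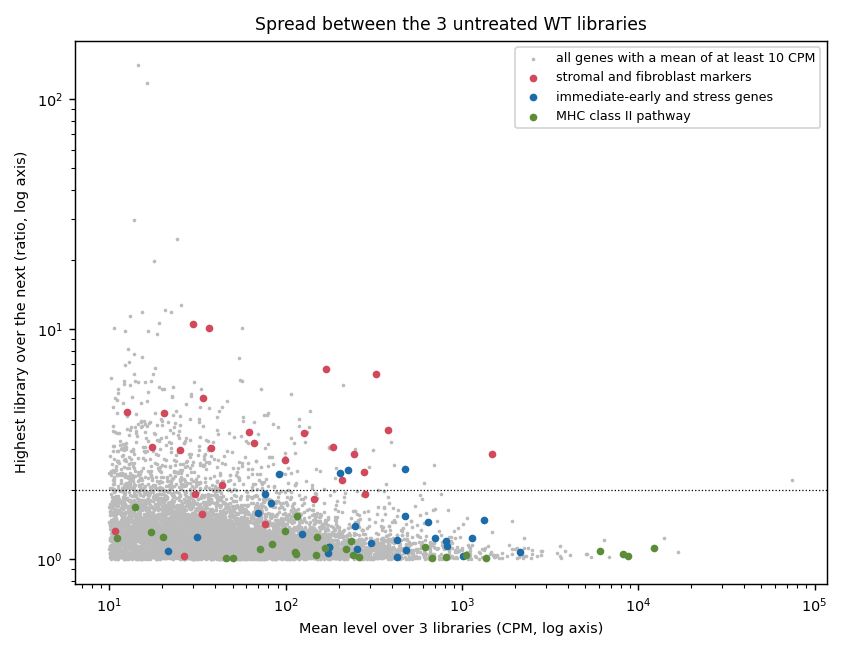
Ratio of the highest to the next library (log axis) against the mean level in CPM (log axis) for the 8316 genes with a mean of at least 10 CPM; coloured points are stromal, immediate-early and MHC class II genes, and the dotted line marks a ratio of 2. Stromal genes lie mostly above the line (21 of 28, all in WT replicate 2), while every class II gene lies below it. Some stromal genes passed the filter on the mean only through replicate 2.

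The most abundant transcripts were those of the cytoskeleton and of antigen presentation. Leaving out mitochondrial, ribosomal protein and predicted genes, Actb, which encodes beta-actin, came first with 18435, 15040 and 17280 CPM (16918 ± 1726). It was followed by the MHC class II chain genes H2-Aa (12212 ± 1409 CPM), H2-Ab1 (8752 ± 892 CPM) and H2-Eb1 (8213 ± 980 CPM). Tmsb4x, which encodes the actin-binding peptide thymosin beta 4, stood at 6834 ± 259 CPM. Next came Cd74, the invariant chain that guides class II to the endosome, at 6099 ± 546 CPM, and Cst3, the protease inhibitor cystatin C and a known dendritic cell gene, at 5116 ± 275 CPM. H2-Ab1 lay above H2-Eb1 in all 3 libraries, although their ranges over the libraries overlapped. H2-Aa lay above H2-Ab1 in all 3 libraries without overlap: its lowest value, 10825 CPM, exceeded the highest value of H2-Ab1, 9412 CPM.

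Among the rest of the 30 were the nuclear RNA Malat1, the class I light chain gene B2m, the ferritin gene Fth1, and Eef2, Lgals3, Gnai2, Hsp90ab1, Psap, Laptm5, Vim, Sub1, Lsp1, Rack1, Pabpc1, Arpc2, Gm2a, Macroh2a1, Arpc1b, S100a4, Col1a1 and Rgs2. Several of these belong to the lysosome: Psap, the precursor of the saposins, stood at 2099 ± 242 CPM, Laptm5, a lysosomal membrane protein of blood cells, at 2062 ± 292 CPM and Gm2a, a lipid transfer protein, at 1627 ± 19.8 CPM. Lgals3, which encodes galectin 3, read 2338, 2017 and 2397 CPM. Arpc2, a subunit of the Arp2/3 complex that branches actin, read 1673, 1697 and 1664 CPM and was also among the 10 steadiest genes of at least 100 CPM. Those 10, by smallest CV, were Tmem109, Ddb1, Cox6c, Atrx, Rpl19, Arpc2, Atp6v1d, Rnaset2a, Picalm and COX1, led by Tmem109 with 216, 217 and 216 CPM.

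**Figure D2:**
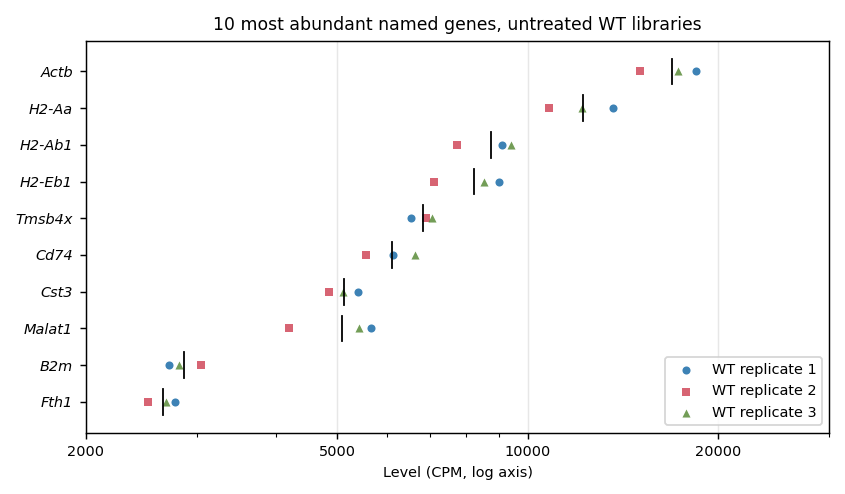
Level in CPM (log axis) of the 10 most abundant named genes in each of the 3 WT libraries, with the mean as a vertical bar. Actb runs from 15040 to 18435 CPM, above H2-Aa in each library, and the class II genes H2-Aa, H2-Ab1, H2-Eb1 and Cd74 are all lowest in WT replicate 2.

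The 4 markers used to check the cell label were all present in every library. H2-Aa, given above, ranked 4 among all genes by mean level. Flt3, the receptor for the culture's growth factor, read 311, 272 and 326 CPM (303 ± 28) and ranked 497. Sirpa, the surface marker of cDC2s, read 150, 156 and 220 CPM (175 ± 38.6) and ranked 964. Itgax, which encodes CD11c, read 111, 80.8 and 91.7 CPM (94.4 ± 15.1) and ranked 2011. All 20 genes of a dendritic cell core list were detected, with a median of 283 CPM beside 21.1 CPM over all detected genes. They included Zbtb46, a transcription factor of the conventional dendritic cell lineage, at 114, 122 and 127 CPM, Spi1, the myeloid factor PU.1, at 386 ± 31.5 CPM and Bcl11a at 327 ± 33.3 CPM. The lowest of the list were Batf3 (17.5 ± 0.622 CPM) and the signalling adaptor Traf1 (12.7 ± 0.97 CPM).

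Of 34 cDC2 surface genes, 32 were detected and 16 reached 100 CPM, with a list median of 110 CPM. S100a4, a calcium-binding protein gene, led with 1536, 1464 and 1481 CPM. Ccr2, the receptor that draws cells to inflamed tissue, stood at 797 ± 92.5 CPM and Fcer1g, the Fc receptor signalling chain, at 599 ± 34.5 CPM. A pair of lectins that mark cDC2s followed: Clec10a read 584, 394 and 610 CPM (530 ± 118), and Cd209a, a mouse relative of DC-SIGN, read 359, 277 and 386 CPM (341 ± 56.7). Both were lowest in WT replicate 2, as was the integrin gene Itgam, with 269, 175 and 290 CPM (245 ± 61.2). Mgl2, the close relative of Clec10a, stood lower at 70.5 ± 13.2 CPM, and Clec4a4, which encodes the DCIR2 receptor of splenic cDC2s, at 8.14 ± 0.979 CPM. Esam, a marker of the Notch-dependent splenic cDC2s, had 14 counts in all, Cd4 stood at 2.37 CPM, and Pdcd1lg2 was listed at 0. Cd24a read 68.3, 258 and 72.6 CPM. Its mean of 133 CPM was 70.4 CPM without replicate 2, the library with the highest summed level of stromal markers. Where these Cd24a reads came from was not tested.

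Transcripts linked with the cDC1 subset were also present. Of 32 cDC1 genes, 27 were detected, with a median of 23.4 CPM. Id2, a transcriptional inhibitor needed by cDC1s and present in other dendritic cells too, read 866, 960 and 806 CPM, and Irf8 read 924, 788 and 781 CPM (831 ± 80.9). Wdfy4, needed for cross-presentation, stood at 486 ± 30.6 CPM, Naaa, a lysosomal amidase gene, at 219 ± 22.4 CPM and Cadm1, an adhesion molecule gene, at 140 ± 15.3 CPM. Some other cDC1 marker genes stood lower. Clec9a, the receptor for dead cells, read 26.4, 18.2 and 17.2 CPM, Tlr3 read 64.2, 37.8 and 35.4 CPM, and Xcr1 read 13.9, 6.31 and 6.31 CPM, each highest in replicate 1. Itgae, which encodes CD103, stood at 4.24 ± 1.05 CPM, Cd8a had 4 counts in all and Cxcl9 was listed at 0. In a sorted bulk sample, a few cells with much of a transcript and many cells with little of it cannot be told apart.

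Plasmacytoid dendritic cell markers gave a similar picture, with 19 of 23 detected. Tcf4, the factor that sets plasmacytoid fate, stood at 321 ± 46.3 CPM, and Siglech, a surface lectin of those cells and of some dendritic cell precursors, read 275, 230 and 242 CPM (249 ± 23.3). Klra17 stood at 132 ± 6.36 CPM and Spib at 85 ± 15.6 CPM. The narrower markers were low: Ccr9 stood at 17.1 ± 9.29 CPM and Ly6d at 5.84 ± 2.76 CPM, while Klk1 and Dntt had 1 count each and Cd8b1 was listed at 0. The summed level of the list was 1857, 1727 and 1654 CPM.

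**Figure D3:**
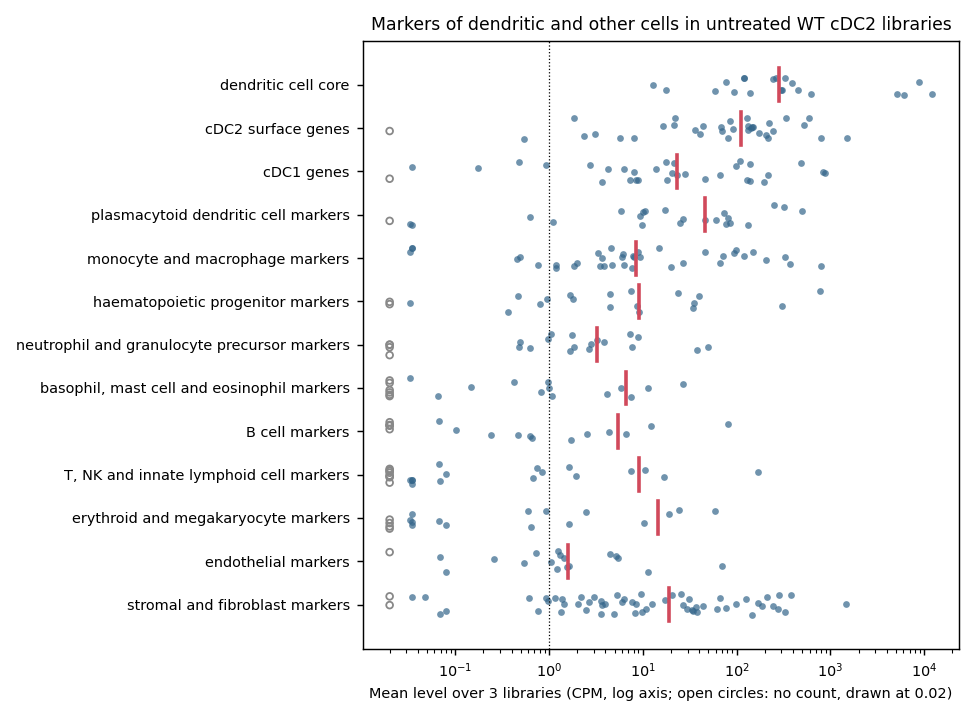
Mean level over the 3 WT libraries (CPM, log axis) of each marker of dendritic and other cells; each point is a gene, red bars are the median of members with at least 1 CPM, the dotted line marks 1 CPM and open circles are genes with no count. The dendritic cell core median (283 CPM) lies above the medians of the other marker lists.

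Monocyte and macrophage markers were split. Of 38, 32 were detected with a median of 8.49 CPM, and the summed level was 2451, 2913 and 2167 CPM. The 4 highest members by mean were Ccr2, Lyz2, Fn1 and Cx3cr1, of which Ccr2 and Cx3cr1 are shared with the cDC2 list and Fn1 with the stromal list. The place of Fn1 rested on replicate 2, without which its mean was 112 CPM in place of 327 CPM. Lyz2, the lysozyme gene of myeloid cells, read 417, 340 and 368 CPM, and Adgre1, which encodes F4/80, read 111, 63.6 and 110 CPM. The complement genes C1qa, C1qb and C1qc stood between 3.71 and 8.84 CPM. Fcgr1, which encodes the monocyte marker CD64, stood at 2.01 CPM, Mertk had 12 counts in all, and Trem2, Marco and Vsig4 had 1 count each.

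Markers of other cells included members that were detected and defining members listed at 0. Members detected numbered 13 of 21 for neutrophils, 6 of 19 for basophils, mast cells and eosinophils, 6 of 17 for B cells and 6 of 24 for T and NK cells. They numbered 6 of 19 for erythroid cells and megakaryocytes, 12 of 18 for endothelium and 13 of 20 for progenitors. The shares for basophil (31.6%), B cell (35.3%), T and NK cell (25%) and erythroid markers (31.6%) were near or below the 30.8% of all listed symbols. Those for neutrophil (61.9%), endothelial (66.7%) and progenitor markers (65%) were above it. None of 21 neutrophil and granulocyte precursor markers reached 100 CPM, and S100a9 (48, 51.5 and 48.7 CPM) and S100a8 (37.7 ± 5.16 CPM) were the highest. Granule genes were detected at lower levels: Mmp8 at 8.96 ± 3.96 CPM, Ngp at 7.66 ± 5.59 CPM, Ltf at 3.22 ± 4.43 CPM, Camp at 2.81 ± 2 CPM and Elane at 1.05 ± 0.829 CPM. Mpo stood at 1.83 CPM, with counts in replicate 3 only. Ly6g, Cebpe, Fcnb and Ms4a3 were listed at 0. The neutrophil list summed to 127, 135 and 136 CPM. Basophil protease genes were detected: Prss34 read 13.2, 35.7 and 31.7 CPM and Mcpt8 read 6.12, 14.8 and 13.2 CPM, within a list that summed to 36.8, 78 and 66.2 CPM. In the B cell list (summed level 97.9, 99.8 and 132 CPM), Ighm, the immunoglobulin heavy chain gene, stood at 80.2 ± 24.8 CPM. Ebf1 (12.2 ± 11.2 CPM), Blnk (6.59 ± 2.68 CPM) and Cd79b (4.38 ± 2.69 CPM) were also detected, while Cd79a, Rag1 and Rag2 were listed at 0. In the T, NK and innate lymphoid list (215, 212 and 206 CPM), Klrd1, a lectin-like receptor gene, stood at 170 ± 19.6 CPM. Il7r (16.8 ± 8.06 CPM), Thy1 (10.5 ± 10.5 CPM) and Gata3 (7.5 ± 11.9 CPM) were also detected, the last 2 highest in replicate 2. Cd3d and Trbc2 had 1 count each, Cd3e had 2 and Ncr1, Prf1 and Lck were listed at 0. Haemoglobin genes were low, led by Hbb-bs at 59.1 ± 8.7 CPM, within an erythroid and megakaryocyte list of 113, 135 and 110 CPM that had Klf1 and Slc4a1 listed at 0. The endothelial list summed to 97.1, 111 and 115 CPM, most of it Pecam1 at 69.7 ± 12.8 CPM, a gene that white blood cells also use, and Stab2 was listed at 0. Progenitor markers summed to 1371, 1077 and 1313 CPM, of which Cd93, also used by myeloid cells, held 777 ± 164 CPM and Flt3 303 CPM. Kit, the stem cell factor receptor, stood at 23.9 ± 1.88 CPM, Cd34 had 51 counts in all, and Gata1 and Hoxa9 were listed at 0.

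Among 57 transcription factors and regulators of dendritic cells, 52 were detected and 24 reached 100 CPM, with a median of 87.1 CPM. Irf8 exceeded Irf4 in all 3 libraries: Irf4 read 205, 136 and 144 CPM (162 ± 37.9), and the ratio of Irf8 to Irf4 was 5.24 ± 0.667, from 4.5 to 5.81. By mean level Irf8 ranked 122 and Irf4 1074. Klf4, needed for a part of the cDC2 lineage, stood at 603 ± 50.3 CPM, Irf5, a factor of inflammatory gene control, at 419 ± 113 CPM and Runx3 at 289 ± 56.2 CPM. The Notch pathway, which shapes splenic cDC2s, was represented by Notch2 at 257, 267 and 258 CPM and by its nuclear partner Rbpj at 231 ± 35 CPM. Its targets Dtx1 (0.978 CPM) and, outside replicate 2, Hes1 were near 0. Zeb2, which restrains the cDC1 fate, read 130, 100 and 120 CPM, and Bach2 stood at 169 ± 36.6 CPM. Batf3, the cDC1 factor, read 17, 18.2 and 17.4 CPM, and Cebpa, a myeloid factor, read 76.7, 77.1 and 78.3 CPM. Both differed little between libraries. Tbx21, a marker of one cDC2 subset, had 17 counts, all in WT replicate 2, and Gfi1 was listed at 0. Of the 47 members with at least 10 CPM, 3 were at least 2 times the next library in WT replicate 1 (Nr4a1, Nr4a2 and Nr4a3), beside 1.41% of all genes. In WT replicate 2 this held for 4 (Id3, Cebpb, Hes1 and Id1), beside 4.95% of all genes. Hes1 and Id1 reached 10 CPM only through replicate 2, without which their means were 1.59 and 3.03 CPM.

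**Figure D4:**
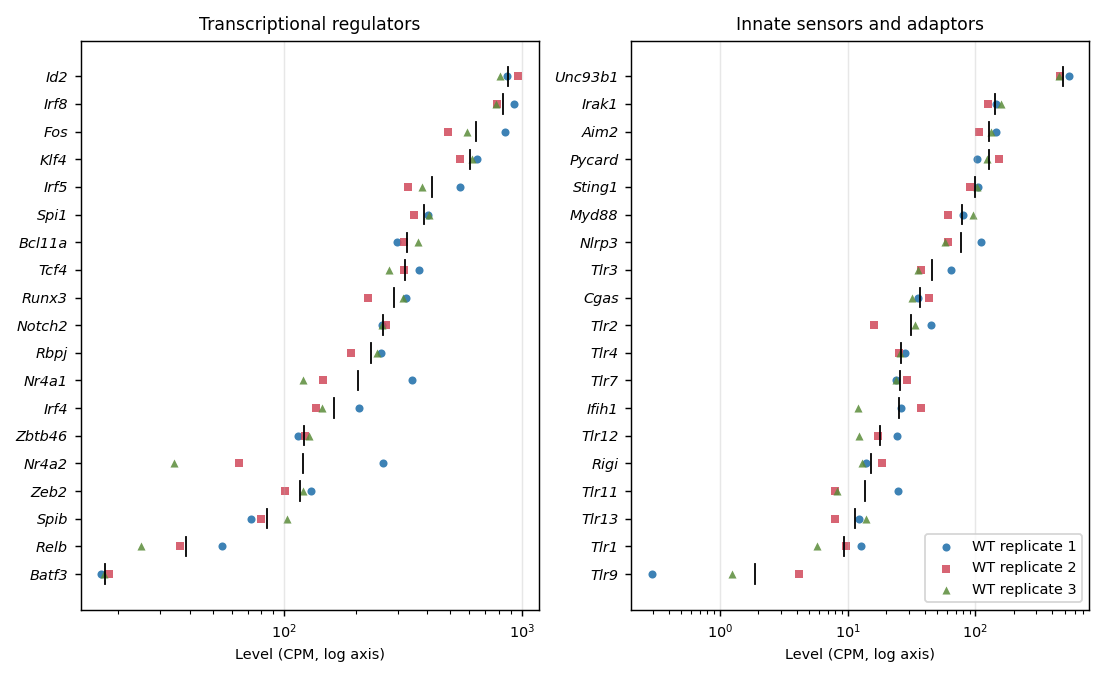
Level in CPM (log axes) of regulators (left) and of innate sensors and adaptors (right) in each of the 3 WT libraries, with the mean as a vertical bar, for members selected for display. Irf8 lies above Irf4 in each library, and Unc93b1 lies above every Toll-like receptor gene shown.

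The promoters of the MHC class II genes, whose chains were among the most abundant transcripts, share a stretch known as the W, X and Y boxes. The Y box is read by the factor NF-Y and holds the letters GATTGG, whose reverse complement is CCAATC. For 8 of 10 class II chain and chaperone genes, RefSeq windows of build GRCm38.p6 were held, from 250 bases before to 50 bases after the start of the gene, matched by symbol since the counts were made on GRCm39. All 8 windows held GATTGG on either strand, beside 18.2% of 27025 genes with a window, 23.6% of the 9686 with a mean of at least 1 CPM and 23.5% of the 1523 with a mean of at least 100 CPM. A match is a description and not a measured binding site. The sequences of 6 of these genes are shown because they carry the same letters at levels that run from 12212 to 1.58 CPM. Each is 60 bases on the strand of the gene, 5′ to 3′, with GATTGG in capitals.
H2-Aa: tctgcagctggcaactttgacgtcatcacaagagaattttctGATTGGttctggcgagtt
H2-Eb1: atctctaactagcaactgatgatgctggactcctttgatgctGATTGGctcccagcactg
H2-DMb1: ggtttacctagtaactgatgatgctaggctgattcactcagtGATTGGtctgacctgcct
H2-Ob: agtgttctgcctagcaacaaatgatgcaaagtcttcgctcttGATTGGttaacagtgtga
H2-Oa: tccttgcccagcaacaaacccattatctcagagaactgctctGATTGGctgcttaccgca
H2-Eb2: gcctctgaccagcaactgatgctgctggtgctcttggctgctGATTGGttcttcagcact
They lie on chromosome 17 at chr17:34287855-34287914 (minus strand) for H2-Aa, and on the plus strand at chr17:34305765-34305824 for H2-Eb1, chr17:34153087-34153146 for H2-DMb1, chr17:34238805-34238864 for H2-Ob, chr17:34092293-34092352 for H2-Oa and chr17:34325532-34325591 for H2-Eb2. Each stretch lies upstream of its gene's annotated start, with the motif 44 to 101 bases before it.

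Of these 6, H2-Aa and H2-Eb1, which encode the peptide-binding chains of I-A and I-E, had 13642, 10825 and 12170 CPM and 8994, 7114 and 8532 CPM. H2-Eb2, a neighbouring beta chain gene with the same letters in its promoter, read 0.296 CPM in replicate 1 and had a mean of 1.58 CPM. The level of H2-Aa was 1.4 ± 0.102 times that of its partner H2-Ab1 and 1.49 ± 0.054 times that of H2-Eb1, ratios that varied less between libraries than the levels did. H2-Aa, H2-Ab1, H2-Eb1 and Cd74 together took 3.53% ± 0.33 of all counts. All 30 genes of the class II pathway list were detected and 19 reached 100 CPM, with a median of 149 CPM.

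The helpers of class II loading followed the chains. H2-DMb1 (1051 ± 98.2 CPM) and H2-DMa (815 ± 95 CPM) encode the chaperone that exchanges peptides. H2-Ob (218, 200 and 239 CPM) and H2-Oa (153, 147 and 147 CPM) encode its inhibitor. The proteases that cut the invariant chain and antigen were led by Ctss at 1438, 1227 and 1449 CPM (1372 ± 125) and Ctsh at 675 ± 20.1 CPM, with Ctsb at 259 ± 34.7 CPM, Lgmn at 83.9 ± 15.6 CPM and Ctsl at 20.1 ± 4.99 CPM. Ifi30, the thiol reductase of the lysosome, stood at 150 ± 24.5 CPM. Ciita, the master activator of class II genes, read 717, 500 and 635 CPM (617 ± 110). The DNA-bound factors with which it works stood far lower, with Nfyb at 71.2 ± 22.2 CPM, Nfya at 50 ± 9.83 CPM, Rfx5 at 45.8 ± 3.43 CPM and Rfxank at 8.28 ± 3.27 CPM. Marchf1, the ubiquitin ligase that sends class II for degradation in resting cells, stood at 235 ± 28.8 CPM, and Cd83, which opposes it, at 115 ± 39 CPM. In this list none of the 28 genes with at least 10 CPM was 2 times higher in 1 library than in the next, beside 7.28% of all genes, a share at which few of 28 genes would be called.

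Genes of class I presentation were lower than the class II chains. B2m, the shared light chain, read 2713, 3046 and 2811 CPM (2857 ± 172), and the ratio of H2-Ab1 to B2m was 3.08 ± 0.469. The heavy chain genes H2-D1 and H2-K1 stood at 867 ± 136 and 696 ± 37.5 CPM. Of the peptide-loading genes, Calr read 823, 1422 and 948 CPM, Tapbp stood at 659 ± 52.4 CPM, Tap2 at 229 ± 37.1 CPM and Tap1 at 152 ± 7.02 CPM. The immunoproteasome genes Psmb8 (417 ± 16.1 CPM), Psmb9 (320 ± 23.2 CPM) and Psmb10 (87.7 ± 2.73 CPM) each exceeded the constitutive subunit they replace, Psmb5 (23.8 ± 10.3 CPM), Psmb6 (104 ± 23.9 CPM) and Psmb7 (45.6 ± 4.77 CPM), in all 3 libraries. Nlrc5, the class I activator, stood at 7.91 ± 1.49 CPM, well under Ciita. The list as a whole had 29 of 33 genes detected and a median of 87.7 CPM, and H2-Q6, H2-Q7 and Cd1d2 were listed at 0. Reads of near-identical H2 genes may have been split or dropped by the counting.

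**Figure D5:**
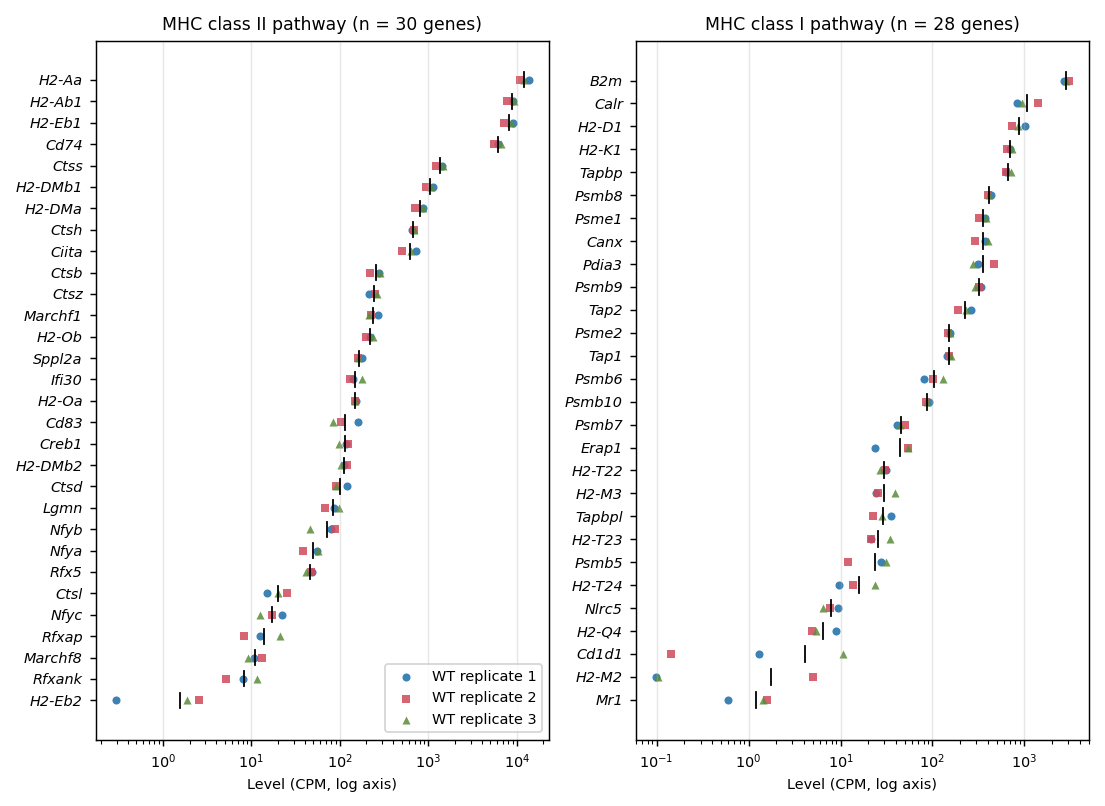
Level in CPM (log axes) of class II (left) and class I (right) pathway genes in each of the 3 WT libraries, with the mean as a vertical bar; genes with no count in a library are not drawn. The class II chains and Cd74 lie between 5542 and 13642 CPM, above B2m at 2713 to 3046 CPM.

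Of endosome and lysosome genes, all 50 found were detected, 33 reached 100 CPM and the median was 170 CPM, beside 21.1 CPM over all detected genes. Npc2, a cholesterol carrier, read 851, 871 and 889 CPM, and Lamp1, a membrane protein of the lysosome, stood at 412 ± 20.6 CPM. The phagocyte oxidase genes were all detected, with Cybb, its catalytic subunit, at 802 ± 88.5 CPM, Ncf1 at 336 ± 14.3 CPM, Cyba at 289 ± 12.9 CPM and Ncf4 at 21.8 ± 0.714 CPM. Of the 48 members with at least 10 CPM, 2 were at least 2 times higher in WT replicate 2 than in the next library, beside 4.95% of all genes. The count is near that share. These were Rab5c, with 253, 589 and 277 CPM, and Cd63, with 40.5, 108 and 51.2 CPM.

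Lectins and Fc receptors gave the surface profile of uptake. Of 36 lectin genes, 28 were detected with a median of 34.4 CPM. Besides Clec10a and Cd209a, Cd209d stood at 144 ± 13.3 CPM, Clec4a1 at 128 ± 18.6 CPM and Clec4a2, an inhibitory receptor gene, at 92.1 ± 8.8 CPM. Clec7a, which encodes the fungal receptor Dectin-1, read 17.7, 21.6 and 10.1 CPM. Ly75, which encodes the DEC-205 receptor, had 10 counts, all in WT replicate 2. Cd207, which encodes langerin, had 1 count, and Cd209f and Clec12b were listed at 0. Counts of the near-identical Cd209 and Clec4a genes are uncertain for single members. The inhibitory Fc receptor gene Fcgr2b (86 ± 14.4 CPM) exceeded the activating Fcgr3 (36.2 ± 8.86 CPM), Fcgr1 (2.01 CPM) and Fcgr4 (1.84 CPM) in all 3 libraries. The signalling chain genes stood well above the receptors, with Tyrobp at 757, 948 and 1032 CPM (912 ± 141), the phosphatase gene Ptpn6 at 550 ± 45.8 CPM and the kinase gene Lyn at 438 ± 23.3 CPM.

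Receptors for growth factors and cytokines had a median of 66.4 CPM, with 38 of 41 detected. Csf2rb, the shared chain of the GM-CSF, IL-3 and IL-5 receptors, had the highest mean, with 411, 309 and 428 CPM (382 ± 64.2), and Csf2ra stood at 222 ± 33.1 CPM. Csf1r, the M-CSF receptor gene, read 145, 169 and 140 CPM. For interferons, Ifnar2 stood at 367 ± 61.1 CPM, above Csf2rb in replicates 1 and 2, and Ifnar1 at 62.5 ± 5.67 CPM, and Ifngr1 at 259 ± 27.4 CPM and Ifngr2 at 50.5 ± 9.98 CPM. In both pairs 1 chain was higher in each of the 3 libraries. Il1r2, the decoy receptor for IL-1, read 218, 113 and 111 CPM, while the signalling receptor Il1r1 had 2 counts in all.

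The Toll-like receptor genes, which detect microbial products, were ordered by mean as Tlr3 (45.8 ± 16 CPM), Tlr2 (31.6 ± 14.6), Tlr4 (26.3 ± 1.58), Tlr7 (25.7 ± 3.09), Tlr12 (18.1 ± 6.13), Tlr11 (13.7 ± 9.61), Tlr13 (11.5 ± 3.11), Tlr1 (9.39 ± 3.44) and Tlr6 (4.39 ± 2.64). Each neighbouring pair in this order overlapped between libraries. Tlr9 stood at 1.9 CPM, Tlr8 at 1.1 CPM, and Tlr5, the flagellin receptor, had 1 count. Unc93b1, the chaperone of the endosomal receptors, read 535, 459 and 446 CPM, above every Toll-like receptor gene in each library, and the adaptor gene Myd88 stood at 78.9 ± 17.2 CPM. Tlr11 moved from 13.7 to 8.15 CPM without replicate 1. Of the cytosolic sensors, Aim2, a sensor of DNA, read 144, 107 and 133 CPM, Sting1 stood at 99.6 ± 7.82 CPM, Nlrp3 at 76.7 ± 29.2 CPM and Cgas at 37 ± 5.62 CPM, while the RNA sensors Ifih1 and Rigi stood at 25.3 ± 12.8 and 15.2 ± 3.03 CPM. The list median was 14.9 CPM, below that of all detected genes.

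Of 42 cytokine genes, 22 were detected and 12 had no count, among them Il6, Il10, Il1a, Il23a, Ifnb1 and Ifng. Grn, which encodes the lysosomal growth factor progranulin, was highest at 740 ± 23.1 CPM, followed by Il16 at 101 ± 16.5 CPM and Mif at 91.7 ± 8.2 CPM. Il12b, the p40 subunit of IL-12, read 11.8, 17.2 and 11.2 CPM, Ebi3, a subunit of IL-27, stood at 71.3 ± 17 CPM, and Il12a had 2 counts. Tnf read 17.6, 3.15 and 18.7 CPM, and Il1b read 14.7 and 7.02 CPM in replicates 1 and 2 and had no count in replicate 3. Of 34 chemokine genes, 15 were detected, led by Ccl9 at 88.2, 102 and 118 CPM. Ccl3 read 177, 63.9 and 56.7 CPM and Ccl4 read 56.8, 19.9 and 10.9 CPM, both highest in WT replicate 1, and their means of 99.2 and 29.2 CPM were 60.3 and 15.4 CPM without it. Ccl17, Cxcl10, Ccl7 and Cxcl1 had 12, 8, 1 and 1 counts, and Ccl19, Cxcl9 and Cxcl11 were listed at 0.

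Receptors for migration were led by Ccr2 and by Cx3cr1, the fractalkine receptor, at 231, 179 and 207 CPM (205 ± 26.1). Ccr1 read 146, 140 and 138 CPM, and Gpr183, an oxysterol receptor that positions cDC2s in the spleen, stood at 126 ± 34.6 CPM. Ccr7, the receptor for travel to the lymph node, read 5.63, 14.5 and 8.17 CPM (9.43 ± 4.56). Ccr4, Ccr8 and S1pr5 were listed at 0.

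Of 42 genes of mature, migratory dendritic cells, 34 were detected and 3 reached 100 CPM (Marcks, Tmem123 and Cd83), with a median over those detected of 15.3 CPM beside 21.1 CPM over all detected genes. Fscn1, the actin-bundling protein of mature cells, read 19.9, 116 and 47.1 CPM. Its mean of 60.9 CPM was 33.6 CPM without replicate 2, and the reason for the gap was not tested. Il4i1 was listed at 0, Ido1 had 3 counts and Ccl22 stood at 5.93 ± 0.831 CPM. Of 35 co-stimulatory and checkpoint genes, the T cell co-stimulators Cd86 read 38.2, 21.1 and 19.9 CPM, Cd80 5.24, 4.59 and 4.13 CPM and Cd40 0.494, 5.59 and 12.9 CPM. Cd274, which encodes PD-L1, stood at 12 ± 5.81 CPM. Higher in this list were Cd52 (959 ± 50.4 CPM), Cd47, which signals against phagocytosis (735 ± 147 CPM), and Slamf7 (483 ± 50.9 CPM).

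In the NF-kB system, all 41 components and partners of A20 were detected, with a median of 45.6 CPM. Nfkbia, the inhibitor that holds NF-kB in the cytoplasm, read 379, 420 and 338 CPM. The subunit genes stood at 171 ± 41.4 CPM for Nfkb1, 134 ± 25.1 CPM for Rel, 119 ± 9.42 CPM for Rela, 58.9 ± 5.41 CPM for Nfkb2 and 38.7 ± 14.9 CPM for Relb. Tnfaip3, which encodes the ubiquitin-editing enzyme A20, had 232, 51 and 42 counts, or 22.9, 7.31 and 4.34 CPM (11.5 ± 9.98), and ranked 7969 of the 12598 detected genes. Of the 40 members with at least 10 CPM, it was the 1 gene at least 2 times higher in WT replicate 1 than in the next library, beside 1.41% of all genes. It reached 10 CPM only through replicate 1, and its mean was 5.83 CPM without that library. Of its partners, Tax1bp1 read 160, 316 and 171 CPM, with replicate 2 highest, while Tnip1 stood at 45.6 ± 11.9 CPM, Itch at 46.9 ± 16.4 CPM and Rnf11 at 12.3 ± 4.74 CPM. The other ubiquitin editors Cyld and Otulin stood at 108 ± 10.9 and 69.2 ± 9.47 CPM.

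Interferon-stimulated genes covered a wide range of baseline levels. Of 79, 68 were detected and 11 reached 100 CPM, with a median of 21.7 CPM beside 21.1 CPM over all detected genes. Ifitm3, a membrane protein that blocks virus entry, read 1279, 1207 and 1419 CPM (1302 ± 108), Ly6e stood at 514 ± 54.2 CPM, Ifitm2 at 328 ± 3.94 CPM and Ifi203 at 283 ± 15.4 CPM. Genes of the signalling complex stood at 104 ± 26 CPM for Irf9 and 38 ± 1.52 CPM for Stat2, and Irf7 stood at 9.42 ± 2.9 CPM. The antiviral effector gene Isg15 read 0.296, 13.8 and 7.65 CPM, Ifit1 stood at 1.41 CPM and Ifit3 at 1.66 CPM. Oas1b, Oas1g and Ifi44l were listed at 0.

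All 34 early response genes were detected, with a median of 215 CPM beside 21.1 CPM over all detected genes. Hsp90ab1, a chaperone gene, stood at 2126 ± 151 CPM, Ier5 at 1148 ± 214 CPM, Junb, an AP-1 subunit, at 825 ± 149 CPM and Fos at 848, 488 and 589 CPM (641 ± 186). Jun, in contrast to Nr4a2 and Atf3, was not highest in replicate 1, with 394, 441 and 448 CPM. The heat-shock gene Hspa1a stood at 4.53 ± 0.632 CPM.

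Cell-cycle genes were all detected (51 of 51, median 65.5 CPM). Ccnd1, which encodes cyclin D1, read 1388, 1257 and 1581 CPM (1409 ± 163), above Ccnd3 (386 ± 74.2 CPM) and Ccnd2 (218 ± 23.9 CPM). Top2a, the topoisomerase of dividing cells, stood at 456 ± 71.2 CPM, Pclaf at 187 ± 10.9 CPM and Mki67 at 130, 74 and 74.4 CPM (92.7 ± 32). The inhibitors Cdkn1a and Cdkn1b stood at 256 ± 61.3 and 172 ± 40.4 CPM. Of survival genes, Mcl1 read 820, 621 and 663 CPM (702 ± 104), above Bcl2 (67.3 ± 17 CPM) and Bcl2l1 (40.1 ± 28.5 CPM, or 25.9 CPM without replicate 2), and Mlkl, the executioner of necroptosis, was listed at 0.

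Cytosolic ribosomal protein genes had a median of 932 CPM over 79 genes and took 8.96% ± 0.405 of counts, led by Rplp1 at 4087 ± 131 CPM, while Rpl15 stood at 70.1 ± 12.3 CPM. Genes encoded by the mitochondrial genome took 3.84% ± 0.41 of counts, a share that may be too low because several of them were listed at 0. The 80 nuclear oxidative phosphorylation genes were all detected with a median of 111 CPM. Among 25 glycolysis genes, Pkm read 252, 558 and 282 CPM, and Hk2, the hexokinase of growing cells, read 398, 278 and 357 CPM. Gapdh stood at 92.7 ± 25.1 CPM. The counting may understate this value and that of Rpl15, which was not tested. The glucose transporter gene Slc2a1 read 32.5, 133 and 33.6 CPM, and its mean of 66.3 CPM was 33.1 CPM without replicate 2. Actin cytoskeleton genes had a median of 422 CPM, with 42 of 46 at 100 CPM or more.

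Of 23 lipid mediator and retinoid genes, among them the enzymes of leukotriene synthesis, 17 were detected with a median of 13.6 CPM. Alox5ap, the activator of 5-lipoxygenase, read 856, 733 and 867 CPM (819 ± 74.4), and Alox5 itself read 124, 128 and 125 CPM. Hpgds, the prostaglandin D synthase of blood cells, stood at 274 ± 15.9 CPM. Ptgs2, which encodes cyclooxygenase 2, read 29.9, 4.3 and 2.69 CPM, with a mean of 12.3 CPM that was 3.5 CPM without replicate 1. The retinoic acid enzyme Aldh1a2 had 3 counts, and Arg1 and Nos2 were listed at 0. Of 25 cholesterol synthesis and transport genes, all were detected (median 32.4 CPM), led by Srebf2, the sterol-responsive activator, at 303, 290 and 272 CPM.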

How the data were processed

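RNA was made into libraries with the QuantSeq 3' mRNA-seq kit, per the labels' protocols. The authors deposited whole-number counts per gene symbol, not normalized. The submitters' processing notes name the build GRCm39 and the tools featureCounts (2.0.6), STAR (2.7.10b), fastp (0.23.1) and Bowtie2. The sources used here do not say which tool did which step, nor give the annotation, the strand setting or the handling of multi-mapped reads.

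Only the 3 WT libraries were read. CPM was computed from the counts with edgeR 4.0.16 (R 4.3.3) TMM factors over these libraries, and a mean of at least 1 CPM counted as detected. No test of a difference between groups was made, since 1 group is described. The spread was also estimated as edgeR's common biological coefficient of variation, 0.37, over the 10301 genes kept by filterByExpr (minimum count 10, minimum total count 15), and the script was tested on simulated data. No 2 libraries agreed within counting noise (chi-square per degree of freedom 34.5 to 64.3), so none was treated as a repeat of another. This does not show that they come from different mice.

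Genes and the 39 lists, 1247 distinct genes in all, were chosen with earlier results of these data known, and lists share members. The rule names the 30 genes of highest mean, leaving out mitochondrial, ribosomal protein and predicted genes, the 4 markers, list members, the 10 genes of largest highest-to-next ratio (mean at least 10 CPM), the 10 of smallest CV (mean at least 100 CPM) and Tnfaip3. Some genes that fall under the rule are not reported here. Genes outside it are said to be chosen after their values were seen. DESeq2 1.42.0 size factors, library size alone, other filters and each library left out were the alternatives.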

Additional observations from a re-analysis of the deposited data

How the results depend on the processing

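No paired analysis was possible because the values describe 1 group and come from no test. Scaling by library size alone or by DESeq2 size factors moved no named level by more than the spread between libraries. Leaving mitochondrial genes and Gm26917 out of the totals raised all levels 1.12 to 1.13 times. Of genes with at least 10 CPM, 524 (6.3%) had a mean that moved over 1.5 times when 1 library was left out. The count of genes at least 2 times higher in 1 library went from 605 of 8316 to 2545 of 12598 at a mean of at least 1 CPM. The share called rose as well as the number of genes taken in. At a mean of at least 50 CPM the count was 119. The common biological coefficient of variation was 0.791 with no filter and 0.339 to 0.407 with 1 library left out. At these depths a gene near or under 0.112 CPM rests on about 3 counts or fewer, and CV grew as levels fell.

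Taking undetected members in as well lowered list medians by construction. The medians in CPM became 89.1 for cDC2 surface genes, 19.3 for cDC1 genes, 24.8 for plasmacytoid markers, 44.5 for class I genes and 18.5 for lectins. They became 2.7 for migration receptors, 0.500 for chemokines, 2.15 for cytokines, 26.1 for co-stimulatory genes, 8.63 for mature dendritic cell genes and 14.7 for interferon-stimulated genes. They became 37.9 for glycolysis, 40.1 for apoptosis, 2.2 for the mitochondrial genome, 0.428 for basophil, 0.473 for B cell, 0.0509 for T and NK cell, 0.0807 for erythroid and 4.5 for progenitor markers.

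With 1 library left out, the detected members of each list were chosen anew, so a median may be over other genes than the main one. Some ranges leave out the main median, as for glycolysis (42.4 CPM) and apoptosis (42.2 CPM). List medians in CPM then ran from 275 to 295 (dendritic cell core), 93 to 107 (cDC2), 22 to 29.2 (cDC1), 82.8 to 102 (transcription factors) and 40.8 to 60.3 (plasmacytoid). For other cells they ran from 3.45 to 5.28 (neutrophil), 4.04 to 7.05 (basophil), 4.66 to 7.22 (B cell), 10.2 to 18.6 (erythroid) and 2.06 to 3.47 (endothelial). Ranges were wide for T and NK cell (2.385 to 12.5), stromal (9.04 to 22.7), progenitor (6.38 to 11.7) and monocyte markers (7.76 to 11.1). The shifts of these 4 lists stayed within the SD of their library medians only because that SD was large. For uptake and presentation the medians are given next. They ran from 88 to 96.5 (class I), 165 to 176 (lysosome) and 62.5 to 79.5 (Fc receptors). They ran from 20.7 to 29.2 for migration receptors, 6.36 to 7.25 for chemokines, 13.4 to 16.5 for mature dendritic cell genes and 212 to 246 for early response genes. They ran from 35.6 to 40.8 for glycolysis, 407 to 447 for actin genes, 44 to 44.9 for apoptosis, 865 to 920 for ribosomal protein genes and 20.3 to 25.5 for the mitochondrial genome.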
